A study of Mus musculus with 10 samples.

Results

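Igf1, the receptors for IGF1, insulin, growth hormone and prolactin, and the adaptors, transcription factors and inhibitor that act directly below those receptors were followed in fetal mouse liver. The group holds 10 genes (Igf1, Igf1r, Insr, Ghr, Prlr, Irs1, Irs2, Stat5a, Stat5b and Socs2), chosen by symbol from the 55401 genes of the count table, and all 10 passed the filter on low counts. Liver RNA came from female fetuses at E18.5, 5 of the genotype Mir483Pat-KO and 5 WT. Mir483Pat-KO fetuses inherited from the father a germline deletion of Mir483, a microRNA gene inside an intron of Igf2, and WT littermates were the controls. The mutant line was derived from JM8.F6 embryonic stem cells of the C57BL/6N strain, from which the selection marker had been removed with Cre in culture, and mice of both genotypes were kept on a C57BL/6J background. Founders were made from 2 clones, and the clone from which these fetuses descended is not given in the sources used here. The deletion is present in every cell, so that the liver was not the only organ to carry it.

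Growth hormone and prolactin bind related cytokine receptors that activate the kinase JAK2, which phosphorylates STAT5A and STAT5B. In postnatal liver, the STAT5 proteins drive transcription of Igf1 and of Socs2, whose product in turn limits growth hormone signalling. IGF1 and insulin bind the related receptor tyrosine kinases IGF1R and INSR, which pass the signal through the adaptors IRS1 and IRS2 to PI3 kinase and AKT. The fetal liver responds little to growth hormone and is also a site of blood formation, so that whole-organ RNA holds hepatocyte and erythroid transcripts together.

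The sequences that link the deletion to these genes are the mature strands of the deleted microRNA and the matches to its seed in 3′ UTRs. The mature strands (RefSeq, GRCm38.p6) are shown with the seed, bases 2 to 8, in capitals. They lie on the minus strand at chr7:142654932-142654952 (miR-483-3p) and chr7:142654968-142654989 (miR-483-5p).
mmu-miR-483-3p: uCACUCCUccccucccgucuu
mmu-miR-483-5p: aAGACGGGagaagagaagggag
The 7-mer AGGAGTG, complementary to the miR-483-3p seed, was searched on the transcript strand of the longest annotated 3′ UTR of each gene. It occurred once in Igf1 and once in Irs1, that is in 2 of the 10 genes, against 12.6% of the 12869 tested genes with an annotated 3′ UTR. The stretches are shown 5′ to 3′ (GRCm38) with the 7-mer in capitals.
Igf1, chr10:87930897-87930925, plus strand: acatcgtctttAGGAGTGtttgtttaaaa
Irs1, chr1:82236185-82236213, minus strand: aacatctagttAGGAGTGaaaatgtgaat
The Igf1 match began at base 174 of a 3′ UTR of 6308 bases and was present in 2 of the 8 protein-coding transcripts of the gene. The Irs1 match began at base 1424 of a 3′ UTR of 4525 bases, lay in the only annotated transcript, and was followed by an A, which makes it an 8-mer match (AGGAGTGA). None of the other 8 genes held this 7-mer, and none of the 10 held CCCGTCT, the 7-mer match to miR-483-5p, which 3.28% of genes held. These letters alone do not show that a site is used.

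Total counts per library ranged from 10831350 to 14765880, and the members had between 149 (Stat5a) and 2332 (Insr) counts in a library. The precursor row of Mir483 had 10 to 22 counts in each WT library and 0 in each Mir483Pat-KO library, where a count of 0 allows up to 3, and it fell in the edgeR test (adjusted p = 0.00133). The mature strands were not measured in these libraries. The haemoglobin share of the counts was 1.33% ± 0.168 in the 5 WT libraries and 1.88% ± 0.342 in the 5 Mir483Pat-KO libraries (mean ± SD, exact two-sided permutation, p = 0.0159). The fetus identification numbers fell in 2 ranges, the lower with 4 WT and 2 Mir483Pat-KO fetuses and the upper with 1 and 3, and the WT libraries held indexes 53 to 57 and the Mir483Pat-KO libraries indexes 60 to 64, so that index order and genotype cannot be told apart. The deviation of genes from their mean over libraries also followed the GC content of their transcripts to a different degree in each library, with Spearman correlations across genes of −0.15 to 0.58 (WT) and −0.42 to 0.20 (Mir483Pat-KO).

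None of the 10 genes differed between Mir483Pat-KO and WT fetal liver past the test. In edgeR's quasi-likelihood test, 0 of the 10 had an adjusted p under 0.05, against a background of 5.19% of the 14098 genes tested (2.43% higher and 2.76% lower, and 1.23% with a fold change over 1.5). At an unadjusted p under 0.05 the count was 2 of 10, Irs2 and Socs2, against a background of 22.2%. DESeq2 and limma-voom each called 0 of the 10 as well, whereas 2 passed with GC content and length offsets, without a low-count filter or without Mir483Pat-KO replicate 1, and 1 with the replicate number as a block. Fitted log2 fold changes (Mir483Pat-KO over WT) ran from −0.36 for Socs2 to 0.34 for Irs2, with 4 genes above 0 and 6 below and a median of −0.07, beside a median of 0.0042 over all genes. For 9 of the 10 the 95% interval of the fold change lay within 1.5-fold in either direction, and the exception was Socs2, whose interval reached down to 0.634.

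**Figure D1:**
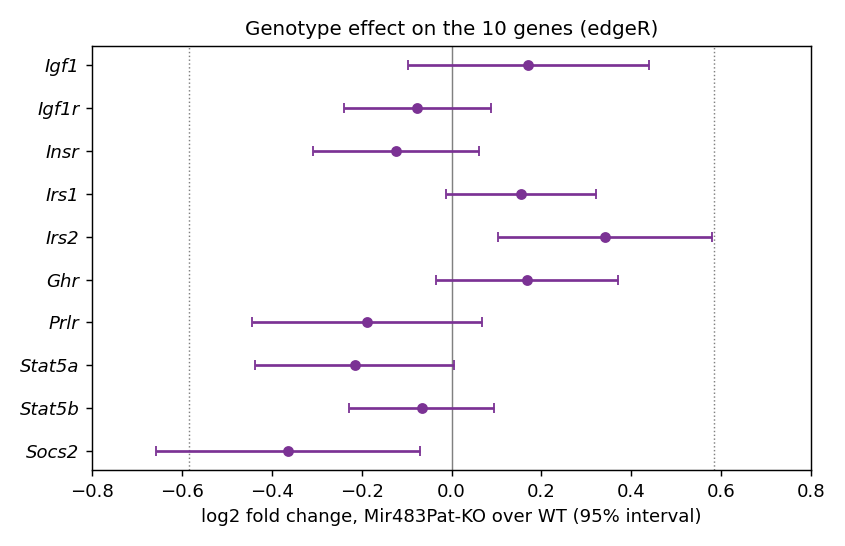
Log2 fold change of each gene, Mir483Pat-KO over WT, with its 95% interval from the edgeR fit (n = 5 per group). The solid line marks no difference and the dotted lines a fold change of 1.5 in either direction. The intervals of Irs2 and Socs2 exclude 0 on opposite sides, and neither gene passed after adjustment over all genes.

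Igf1 (ENSMUSG00000020053, chr10:87858265-87937042, plus strand) encodes the growth factor that the postnatal liver releases into the circulation. It stood at 23.2, 23.5, 27.7, 22.1 and 16.5 CPM (counts scaled to library size) in WT replicates 1 to 5. In Mir483Pat-KO replicates 1 to 5 it stood at 25.2, 25.1, 31.8, 20.8 and 24.1 CPM. WT replicate 5 was the lowest and Mir483Pat-KO replicate 3 the highest, and the groups overlapped. On the log2 scale the difference was 0.17 ± 0.13 (SE), with a 95% interval from −0.10 to 0.44 (edgeR, adjusted p = 0.458). Without Mir483Pat-KO replicate 3 it was 0.07, and with offsets for GC content and length it was 0.07 or −0.04, depending on whether the GC content of all transcripts or of the longest one was used. Larger differences were 0.26 with the identification number range as a covariate (edgeR, adjusted p = 0.257) and 0.25 without WT replicate 3 (edgeR, adjusted p = 0.286). In whole-organ RNA, a different number of cells that express a gene and a different amount of its RNA per cell cannot be told apart.

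Both receptor tyrosine kinases had lower means in Mir483Pat-KO with overlapping groups. Igf1r (ENSMUSG00000005533, chr7:67952827-68233668), the receptor for IGF1 and IGF2, had 37.3, 33.6, 37.5, 33.6 and 30.9 CPM in WT and 33.9, 35.6, 32.4, 29.9 and 31.99 CPM in Mir483Pat-KO. The genotypes differed by −0.08 ± 0.08 (SE) on the log2 scale (edgeR, adjusted p = 0.598). The Igf1r difference was 0.013 with the haemoglobin covariate and −0.0098 with the identification number range as a covariate. Insr (ENSMUSG00000005534, chr8:3122061-3279617), the insulin receptor, was the member with the highest CPM. It had 148.9, 168.8, 166.8, 139.8 and 134.0 CPM in WT and 144.2, 137.6, 162.1, 121.8 and 130.3 CPM in Mir483Pat-KO, with the lowest value in Mir483Pat-KO replicate 4. The difference was −0.12 ± 0.09 (SE) on the log2 scale (edgeR, adjusted p = 0.429). It was −0.06 with the haemoglobin covariate and −0.19 without Mir483Pat-KO replicate 3, the ends of its range over the other fits.

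The related cytokine receptors Ghr and Prlr lie on the same chromosome and differed between genotypes in opposite directions, neither past the test. Ghr (ENSMUSG00000055737, chr15:3317760-3583492), the growth hormone receptor, had 81.4, 106.3, 100.7, 85.4 and 78.1 CPM in WT. It had 111.2, 114.9, 96.1, 97.8 and 88.1 CPM in Mir483Pat-KO, where replicates 1 and 2 were above every WT library and the other three within the WT range. The fitted log2 difference was 0.17 ± 0.10 (SE; edgeR, adjusted p = 0.320), and it was 0.27 with the identification number range as a covariate (adjusted p = 0.0521), 0.36 with the haemoglobin covariate (adjusted p = 0.329), 0.27 in the lower range alone (adjusted p = 0.298), 0.09 with GC content and length offsets and 0.02 with offsets from the longest transcript (adjusted p = 0.920). Prlr (ENSMUSG00000005268, chr15:10177238-10349180), the prolactin receptor, had 76.4, 91.9, 87.5, 87.0 and 67.1 CPM in WT and 88.5, 73.9, 82.7, 59.5 and 55.3 CPM in Mir483Pat-KO. Replicates 4 and 5 of Mir483Pat-KO were below every WT library. Its log2 fold change was −0.19 ± 0.12 (SE; edgeR, adjusted p = 0.386). With GC content and length offsets Prlr passed, at −0.32 (adjusted p = 0.0448) from all transcripts and −0.38 (adjusted p = 0.0128) from the longest one. It was −0.02 with the haemoglobin covariate (adjusted p = 0.970), −0.06 with the range covariate (adjusted p = 0.774) and −0.08 in the lower range alone (adjusted p = 0.771).

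The adaptors Irs1 and Irs2 were both higher on average in Mir483Pat-KO. Irs1 (ENSMUSG00000055980, chr1:82233101-82291416, minus strand) had 21.2, 25.9, 25.7, 25.9 and 24.9 CPM in WT and 29.8, 27.0, 28.3, 26.4 and 26.2 CPM in Mir483Pat-KO. All 5 Mir483Pat-KO libraries were above all 5 WT libraries, the nearest values being 25.9 and 26.2 CPM, and 6.60% of all genes tested had groups that did not overlap. A log2 difference of 0.15 ± 0.08 (SE) did not pass (edgeR, adjusted p = 0.263), and over all other fits the adjusted p ran from 0.121 to 0.489. Of the exonic bases of Irs1, 30.9% overlap Gm9747 on the opposite strand, and the strand setting of the counting is not stated, so that reads of the pair might not be told apart.

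Irs2 (ENSMUSG00000038894, chr8:10984681-11008458), the adaptor whose gene is induced in liver when insulin is low, had 52.2, 66.0, 66.7, 74.8 and 68.7 CPM in WT. It had 65.6, 76.6, 99.96, 77.8 and 95.9 CPM in Mir483Pat-KO, where replicates 2 to 5 were above every WT library and replicate 1 was within the WT range. The log2 fold change was 0.34 ± 0.11 (SE), or 1.27-fold with a 95% interval from 1.07 to 1.49 (edgeR, unadjusted p = 0.00789, adjusted p = 0.0874). It passed without a low-count filter (adjusted p = 0.00796), with the replicate number as a block (adjusted p = 0.0165), with GC content and length offsets (adjusted p = 0.0202) and without Mir483Pat-KO replicate 1 (0.41, adjusted p = 0.0371). With the haemoglobin share of each library as a covariate the log2 fold change was 0.04 (adjusted p = 0.928), in a fit that called 1 gene of all tested, and in the lower identification range alone it was 0.13 (adjusted p = 0.699).

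Of the transcription factors, Stat5a and Stat5b are neighbours on chromosome 11. Stat5a (ENSMUSG00000004043, chr11:100859351-100885169) had 16.8, 18.9, 18.7, 16.9 and 18.6 CPM in WT and 17.96, 12.4, 16.3, 13.4 and 17.1 CPM in Mir483Pat-KO, with the lowest values in replicates 2 and 4. The fitted log2 difference was −0.22 ± 0.10 (SE; edgeR, adjusted p = 0.238), and it was −0.13 with the haemoglobin covariate, −0.13 with GC content and length offsets and −0.10 with those from the longest transcript. Stat5b (ENSMUSG00000020919, chr11:100780731-100850724) had 71.7, 68.1, 74.0, 73.0 and 81.3 CPM in WT and 64.4, 64.9, 81.3, 68.0 and 72.8 CPM in Mir483Pat-KO. The groups overlapped, with 3 Mir483Pat-KO libraries below every WT library and 1 just above. The log2 fold change was −0.07 ± 0.08 (SE; edgeR, adjusted p = 0.648). It was −0.20 with the haemoglobin covariate (adjusted p = 0.482), −0.15 in the lower range alone (adjusted p = 0.424) and −0.14 with the range covariate (adjusted p = 0.199). With GC content and length offsets it was 0.0040 (adjusted p = 0.985).

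Socs2 (ENSMUSG00000020027, chr10:95385362-95417180), a STAT5 target that limits growth hormone receptor signalling, had the lowest fold change of the group. It had 27.0, 25.6, 37.4, 27.6 and 21.3 CPM in WT and 28.4, 20.9, 20.2, 19.0 and 19.3 CPM in Mir483Pat-KO. Replicates 2 to 5 of Mir483Pat-KO lay below every WT library, whereas replicate 1 lay above 4 of the 5. The log2 fold change was −0.36 ± 0.14 (SE), or 0.777-fold with a 95% interval from 0.634 to 0.953 (edgeR, unadjusted p = 0.0184, adjusted p = 0.136). It passed without Mir483Pat-KO replicate 1 (−0.49, adjusted p = 0.0372) and without a low-count filter (−0.36, adjusted p = 0.0247), and it was −0.24 without WT replicate 3, its highest library (adjusted p = 0.275). In the upper identification range Socs2 had 21.3 CPM in the single WT library and 19.0 to 20.2 CPM in the 3 Mir483Pat-KO libraries, with the range as a covariate the log2 fold change was −0.21 (adjusted p = 0.2998), and with the haemoglobin share as a covariate it was −0.15 (adjusted p = 0.780).

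**Figure D2:**
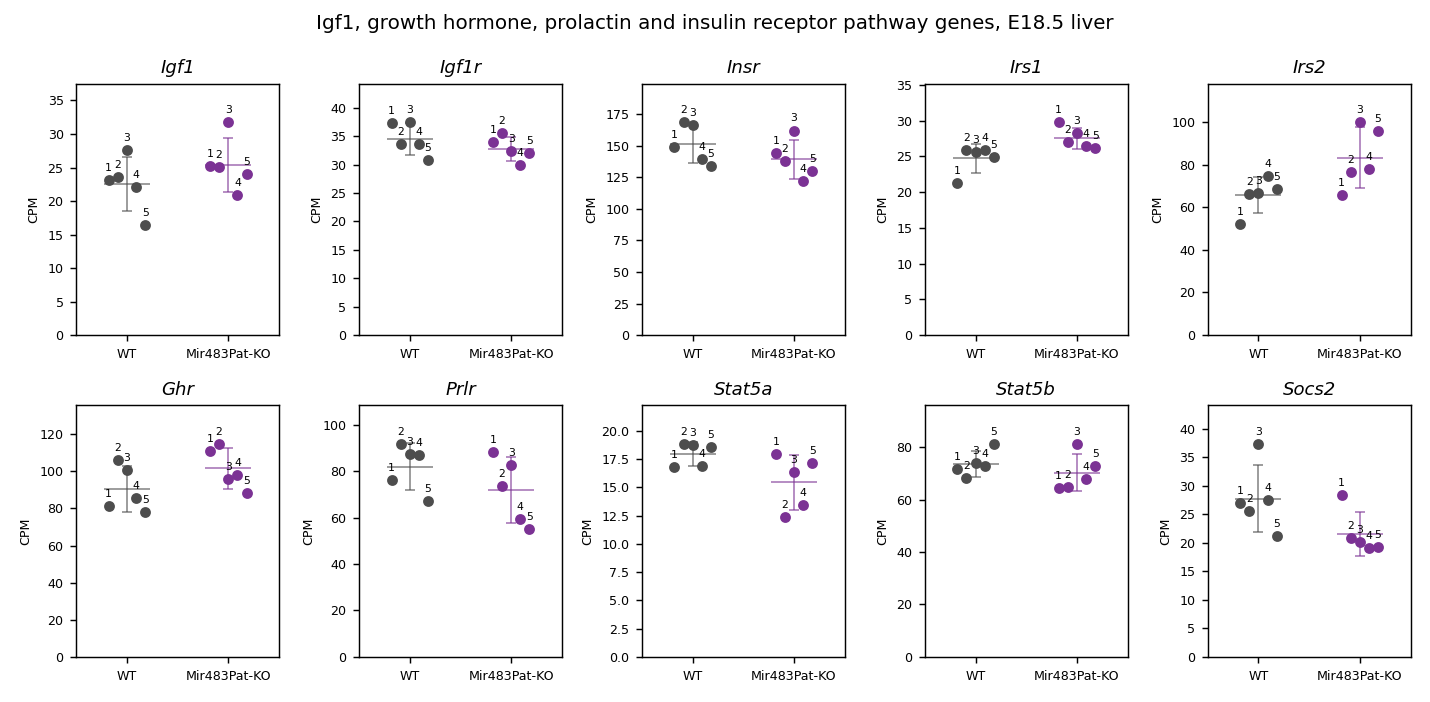
CPM of each of the 10 genes in every library, with WT in grey and Mir483Pat-KO in purple. Points are libraries, numbered by replicate, bars are the mean ± SD (n = 5) and each vertical axis starts at 0. Irs1 is the gene whose groups do not overlap, and for Socs2 replicate 1 of Mir483Pat-KO sits apart from the other 4. For Irs2, replicate 1 of Mir483Pat-KO is the lowest of its group and lies within the WT range.

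The same effects were computed under 23 other fits, of which 10 left out 1 library each. Of the resulting 230 values of the members, 218 kept their direction and their side of the threshold, 9 passed the threshold in the reported direction, and 3 changed sign. The values that passed belonged to Irs2, Socs2 and Prlr, and those that changed sign to Igf1, Igf1r and Stat5b.

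**Figure D3:**
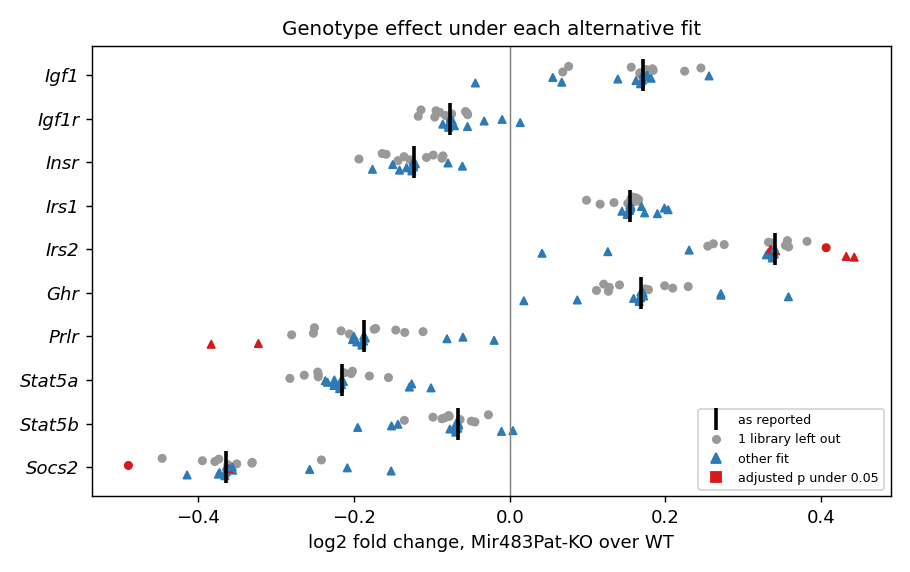
Log2 fold change of each gene, Mir483Pat-KO over WT, in the reported fit (black bars), in fits without 1 library (circles) and in the other fits (triangles), with adjusted p under 0.05 in red. Red points occur for Irs2, Prlr and Socs2, and points on both sides of 0 for Igf1, Igf1r and Stat5b.

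Ratios of related genes within a library do not depend on how libraries are scaled, and 4 were compared. The ratio of Ghr to Prlr counts was 1.07, 1.16, 1.15, 0.981 and 1.16 in WT replicates 1 to 5 and 1.26, 1.56, 1.16, 1.64 and 1.59 in Mir483Pat-KO replicates 1 to 5. Growth hormone receptor transcripts were thus more abundant relative to prolactin receptor transcripts in 4 of the 5 Mir483Pat-KO livers than in any WT liver, and the mean was 1.10 ± 0.0791 in WT against 1.44 ± 0.218 in Mir483Pat-KO (SD, n = 5). The difference of 0.37 on the log2 scale had an unadjusted p of 0.0159 in a two-sided exact permutation test, the smallest possible value being 0.00794, and did not pass once adjusted over the 4 ratios (p = 0.0635). Without Mir483Pat-KO replicate 1 or 3 it did pass (exact permutation, adjusted p = 0.0476 and 0.0317), whereas without any 1 WT library the adjusted p was 0.127 to 0.222 and in the lower range alone 0.267. With GC content and length offsets the log2 fold changes of the pair were 0.09 for Ghr and −0.32 for Prlr.

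The other ratios differed by less. Igf1r to Insr counts stood at 0.229 ± 0.0194 in the WT libraries and 0.237 ± 0.0224 in the Mir483Pat-KO libraries (SD, n = 5, two-sided exact permutation, adjusted p = 0.540). Irs1 to Irs2 counts stood at 0.379 ± 0.0240 and 0.341 ± 0.0726, and Stat5a to Stat5b counts at 0.245 ± 0.0203 and 0.221 ± 0.0368 (exact permutation, adjusted p = 0.328 for each). In both of these ratios 3 Mir483Pat-KO libraries were below every WT library and replicate 1 above every WT library.

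**Figure D4:**
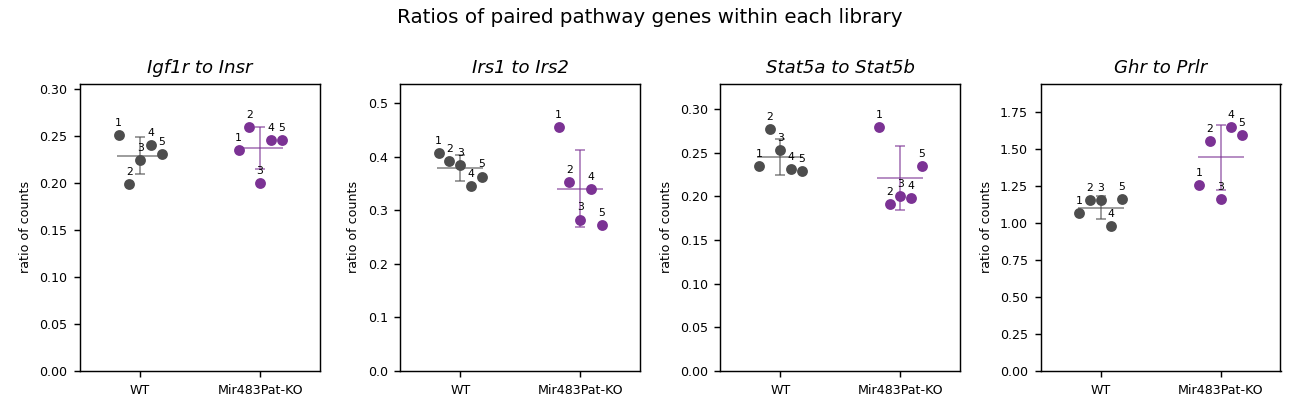
Ratio of the counts of 2 related genes in each library, with WT in grey and Mir483Pat-KO in purple, the mean ± SD as bars (n = 5) and axes from 0. For Ghr to Prlr, 4 of the 5 Mir483Pat-KO points are above all WT points.

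Levels were compared between genes as CPM per kilobase of exon. In WT liver Stat5b was the highest at 13.3 ± 0.874, followed by Insr at 11.03 ± 1.14, Irs2 at 10.4 ± 1.31 and Ghr at 9.98 ± 1.37 (SD, n = 5). Insr overlapped with Irs2 and Irs2 with Ghr, whereas Stat5b was just above all libraries of Insr. Prlr, at 5.34 ± 0.658, overlapped neither with Ghr above it nor with Socs2 below it. The remaining genes were Socs2 at 2.91, Irs1 at 2.70, Stat5a at 2.52, Igf1 at 2.28 and Igf1r at 2.06, each of which overlapped with the next. Per length, the receptor for insulin was therefore listed above that for IGF1, and Stat5b above Stat5a. In Mir483Pat-KO the order began with Irs2 at 13.2 ± 2.27 and Stat5b at 12.7 ± 1.27, and Igf1r was again the lowest at 1.95. Exon length counts every annotated exon, so that these levels understate a gene whose liver transcripts use few of them.

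**Figure D5:**
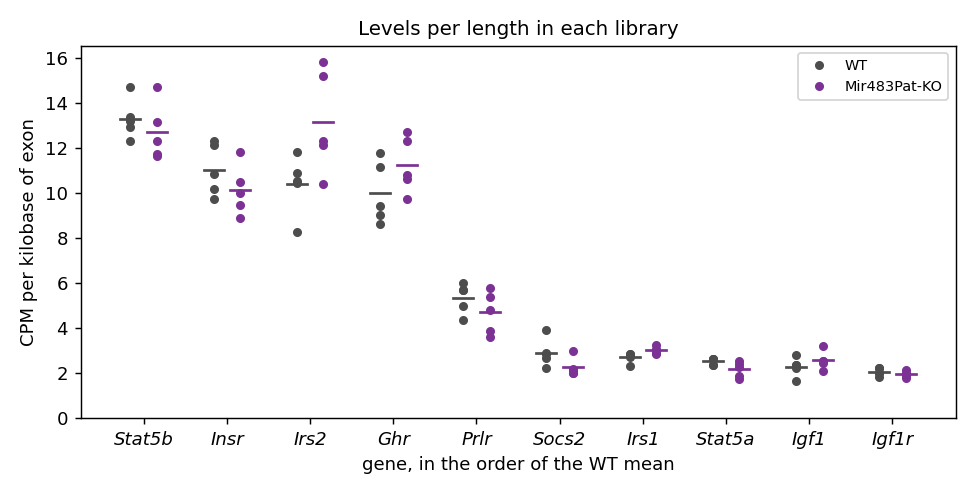
CPM per kilobase of exon of the 10 genes in each library, in the order of the WT mean, with WT in grey and Mir483Pat-KO in purple and short lines at the means. Within each genotype, a group of 4 genes (Stat5b, Insr, Irs2 and Ghr) lies above Prlr, and the other 5 lie below it.

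Among themselves, the genes varied together to a limited degree once group means were removed. Of the 45 pairs, 33 had a positive Pearson correlation of log2 CPM over the 10 libraries, with a median r of 0.29. Igf1 and Insr formed the pair with the highest correlation, at r = 0.88 (exact permutation within groups, p = 2.78e-04, adjusted p = 0.0125) and rho = 0.93 (exact permutation, p = 8.33e-04, adjusted p = 0.0375). Without the 2 libraries farthest from the median of Igf1, r was 0.83. With GC content and length offsets r was 0.79 (exact permutation, adjusted p = 0.463), and no pair passed. The transcripts of Igf1 and Insr have a GC content of 43.6% and 45.8%. The lowest correlation was that of Ghr and Stat5b (r = −0.66, exact permutation, adjusted p = 0.226).

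The genes of the whole table that varied most like Igf1 within the groups were ranked by the root mean square difference of log2 CPM over the 10 libraries, centred on the mean of each group so that the genotype difference plays no part, among 8883 genes with a median difference of 0.282. Npat was the closest at 0.0623, followed by Stk3 at 0.0795, Klf3 at 0.0860, Xk at 0.0891 and Heca at 0.0895. Insr was the closest member at 0.118, and Irs2 the farthest at 0.276. Of the 5 closest genes, Xk rose in Mir483Pat-KO, by 0.50 on the log2 scale (edgeR, adjusted p = 0.0198).

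Around these 10 genes, most of the other ligands and receptors of the system did not pass the filter on low counts. Of 8 listed, 2 were tested and 0 passed in edgeR or in any other fit, beside 5.19% of all genes in edgeR. Both had an unadjusted p under 0.05 in edgeR, beside 22.2% of all genes. Igf2, the fetal growth factor gene that hosts Mir483, differed by −0.20 on the log2 scale (adjusted p = 0.205) and Igf2r, which clears IGF2, −0.19 (adjusted p = 0.214). The genes for insulin (Ins1 and Ins2), growth hormone (Gh) and ghrelin (Ghrl) had a mean of at most 0.530 CPM in either group, and prolactin (Prl) had 0 counts in all libraries.

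Of 24 genes of JAK-STAT signalling below the cytokine receptors, 23 were tested and 3 passed (13.0%, beside 5.19% of all genes). Of the 3, 2 were higher and 1 lower in Mir483Pat-KO. An unadjusted p under 0.05 was reached by 10, beside 22.2% of all genes. Jak2, the kinase bound to the growth hormone and prolactin receptors, rose from 47.9 ± 4.41 to 59.0 ± 2.65 CPM (SD, n = 5; log2 fold change 0.30, edgeR adjusted p = 0.0265). Its values were 43.1 to 53.01 CPM in WT and 54.7 to 61.2 CPM in Mir483Pat-KO and did not overlap. Socs3, an inhibitor induced by cytokines such as IL-6, rose by 0.42 on the log2 scale (edgeR, adjusted p = 0.0379). Cish, a STAT5 target and feedback inhibitor like Socs2, stood 0.16 higher on the log2 scale (edgeR, adjusted p = 0.264). Of this list, 0 genes passed with the haemoglobin covariate or in the lower range alone, and 1 passed without Mir483Pat-KO replicate 3, WT replicate 4 or WT replicate 5.

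Below the insulin and IGF receptors, 58 of 60 listed genes were tested, and 3 passed (5.17%), a share close to that of all genes. Braf, a kinase of the MAP kinase cascade, rose by 0.34 on the log2 scale (edgeR, adjusted p = 0.0406). Mtor, the kinase that couples growth factors to translation, fell by 0.26 (adjusted p = 0.0341), and Eif4ebp2, a translation repressor that the kinase MTOR inactivates, fell by 0.29 (edgeR, adjusted p = 0.0262). Akt1 (−0.13, adjusted p = 0.257), Akt2 (0.0080, adjusted p = 0.959), Foxo1 (−0.12, adjusted p = 0.398) and Grb10 (−0.04, adjusted p = 0.816), an imprinted inhibitor of both receptors, did not pass in edgeR. The count was 0 without Mir483Pat-KO replicate 3, 4 or 5 and 1 without Mir483Pat-KO replicate 2, WT replicate 4 or WT replicate 5, and it was 0 with the haemoglobin covariate and in the lower range alone.

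Of 11 listed hepatic genes linked to growth hormone signalling through STAT5, 10 were tested. Of these, 5 had a log2 fold change above 0 and 5 below, and 2 fell, beside 2.76% of all genes. The count was 0 with the haemoglobin covariate, 1 in the lower range alone or without Mir483Pat-KO replicate 4, and 4 without WT replicate 2. Cyp2d9, a cytochrome P450 higher in male than in female adult liver, fell from 46.8 ± 3.83 to 27.0 ± 5.76 CPM (SD, n = 5; log2 fold change −0.79, edgeR adjusted p = 0.0027). Ces2e, a carboxylesterase, fell by 0.73 on the log2 scale (edgeR, adjusted p = 0.0177). Igfals, which encodes the subunit that retains IGF1 in the circulation, had −0.30 (edgeR, adjusted p = 0.177). Of 13 genes induced by FOXO1 when insulin signalling is low, 0 passed in edgeR, with 4 at an unadjusted p under 0.05 (22.2% of all genes), and DESeq2 called 1. Igfbp1, the insulin-repressed IGF binding protein, stood 0.41 higher on the log2 scale (edgeR, adjusted p = 0.276). Its values were 674 to 1013 CPM in WT and 801 to 2106 CPM in Mir483Pat-KO, where 1 library was above every WT library.

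Summed levels of 8 lists of cell type markers were compared between the genotypes, with p-values not adjusted over the lists. All 10 hepatocyte markers had a log2 fold change below 0, of which Apoa1 and Cps1 fell, beside 2.76% of all genes. The summed level of hepatocyte markers was 223246 to 250380 CPM in WT and 200323 to 230798 CPM in Mir483Pat-KO (two-sided exact permutation, p = 0.0238). Of 12 erythroid markers, 10 were above 0, of which 2 rose, Hbb-bs among them, beside 2.43% of all genes. The erythroid sums were 16197 to 20865 and 18930 to 26880 CPM (exact permutation, p = 0.0238). Of 10 stellate and mesenchymal markers 9 were below 0 and 0 passed in edgeR, 5 of them with an unadjusted p under 0.05 (22.2% of all genes), with sums of 599 to 1126 and 552 to 847 CPM (exact permutation, p = 0.0873). Endothelial sums were 452 to 500 and 395 to 482 CPM (exact permutation, p = 0.0397). Of 10 macrophage markers Clec4f and C1qa fell, beside 2.76% of all genes. The macrophage sums were 828 to 1028 and 731 to 963 CPM (exact permutation, p = 0.349). Of the 5 megakaryocyte, 8 granulocyte and 8 B-lymphoid markers tested, 0 passed in edgeR and 1, of the granulocyte list, had an unadjusted p under 0.05. The sums of these 3 lists gave p = 0.746, 0.405 and 0.960 (exact permutation). In the lower identification range the sums of the genotypes overlapped for hepatocyte markers (223246 to 245575 CPM in 4 WT and 219995 to 230798 CPM in 2 Mir483Pat-KO libraries), and the erythroid sums of Mir483Pat-KO (18930 to 20596 CPM) lay within those of WT (16197 to 20865 CPM). No marker of these lists was at 0 in all libraries. Beyond the fits with the haemoglobin covariate, their part in the values of the 10 genes was not tested.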

How the data were processed

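The authors made stranded polyA RNA-seq libraries, aligned paired reads to GRCm38 with STAR, and deposited raw counts per Ensembl gene without normalization (STAR and GRCm38 per the labels). The strand setting and the rule for reads that map to several places are not stated. The sample labels gave the groups. The members and gene lists were chosen with earlier results of these data known.

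Counts were tested in R 4.3.3 with edgeR 4.0.16 (filterByExpr, TMM, quasi-likelihood F-test without covariates), with Benjamini-Hochberg adjustment over 14098 genes and a threshold of 0.05. CPM used TMM library sizes. Log2 CPM for correlations and likeness used a prior count of 2. Named were all members, list genes that passed (at most 8 a list), 10 pathway genes whatever their result, and the 5 genes most like Igf1 with a mean log2 CPM of at least 1 and an SD of at least 0.5 times its own. Gene positions and 3′ UTRs came from GENCODE M21 (GRCm38), and 55141 of 55401 identifiers matched a symbol.

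Alternatives were RLE scaling, DESeq2 1.42.0, limma-voom (limma 3.58.1), a robust fit, no filter, at least 10 counts per library, the replicate block, the identification range (split at 450), the lower range alone, the haemoglobin share, abundant genes left out of the scaling, lowess GC content and length offsets (span 0.3), and each library left out. Offsets from the longest transcript were added after the data were seen. Same-numbered libraries correlated at −0.05 to 0.26 in their deviations from the group means, and were treated as unpaired. Replicates were separate fetuses, and no pair agreed within sampling noise (chi-square per degree of freedom at least 4.54). On simulated data with 200 genes changed by a fold of 2 among 14098, edgeR recovered 95%, and 3.06% of its calls were false. The simulated libraries held no differences in GC content trend, haemoglobin share or identification range. The rates therefore apply to 2-fold changes without such differences, and not to the smaller changes of the members. Limits from counts cover counting error only. Results that rest on items withheld for evaluation are not reported here.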

Additional observations from a re-analysis of the deposited data

Results flagged for a closer look

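CPM values of the 10 genes and the ratios were examined for single libraries far from the rest of their group, in 28 groups of 5, of which chance alone would mark about 1 in 20. WT replicate 1 had 21.2 CPM of Irs1, below the other WT libraries at 24.9 to 25.9 CPM. Mir483Pat-KO replicate 1 had 28.4 CPM of Socs2, above the other libraries of its group at 19.0 to 20.9 CPM.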

How the results depend on the processing

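Log2 fold changes of the 10 genes ran as follows when 1 library was left out: Igf1 0.07 to 0.25, Igf1r −0.12 to −0.05, Insr −0.19 to −0.09, Irs1 0.10 to 0.17, Irs2 0.25 to 0.41, Ghr 0.11 to 0.23, Prlr −0.28 to −0.11, Stat5a −0.28 to −0.16, Stat5b −0.14 to −0.03 and Socs2 −0.49 to −0.24. Sign changes occurred for Igf1r with the haemoglobin covariate (0.013), Stat5b with GC content and length offsets (0.0040) and Igf1 with offsets from the longest transcript (−0.044). Irs2 passed with GC content and length offsets (0.43), with those from the longest transcript (0.44), without a filter (0.34) and with the replicate block (0.34). Prlr passed with both kinds of offsets (−0.32 and −0.38), and Socs2 without a filter (−0.36). The number of the 10 genes that passed, 0 as reported, was 2 with either offsets or without a filter, 1 with the replicate block, and 0 to 2 with 1 library left out, the 2 being Irs2 and Socs2 without Mir483Pat-KO replicate 1. The block changed no other call of the 10 genes, and the numbers do not pair the fetuses by design. The cause of these differences was not tested.

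Of all genes, 731 passed as reported, 1167 with DESeq2, 1 with the haemoglobin covariate, 23 in the lower range alone, 1258 without a filter, 1189 with the range covariate, 1338 with the replicate block, and 279 to 863 with 1 library left out. With a fold change over 1.5 the count was 173 as reported, 1 with the haemoglobin covariate, 21 in the lower range alone, 321 without a filter, and 97 to 233 with 1 library left out. The JAK-STAT count of 3 became 5 with DESeq2, without a filter or with the range covariate, 0 with the haemoglobin covariate or in the lower range, and 1 to 5 with 1 library left out. The insulin and IGF count of 3 became 5 with the range covariate, 1 with longest-transcript offsets, 0 with the haemoglobin covariate or in the lower range, and 0 to 4 with 1 library left out. The growth hormone target count of 2 became 0 with the haemoglobin covariate, 1 in the lower range, and 1 to 4 with 1 library left out, the highest without WT replicate 2. The FOXO1 list count of 0 became 2 with offsets or without a filter, 1 with DESeq2, longest-transcript offsets, the range covariate or the replicate block, and 0 to 1 with 1 library left out.

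Log2 ratio differences with 1 library left out were −0.0013 to 0.11 for Igf1r to Insr, with the sign change without WT replicate 2, −0.29 to −0.10 for Irs1 to Irs2, −0.25 to −0.11 for Stat5a to Stat5b and 0.32 to 0.45 for Ghr to Prlr. Irs1 to Irs2 passed without Mir483Pat-KO replicate 1 (exact permutation, adjusted p = 0.0476), and in the lower range it was 0.068. The sign-flip test of same-numbered pairs cannot give a p under 0.0625, nor can the lower range alone give one under 0.0667. The count of correlated pairs, 1 as reported, was 0 with GC content and length offsets. With 6-mers in place of 7-mers, 6 of the 10 genes held a match to miR-483-3p and 3 to miR-483-5p, and with 8-mers 1 and 0. The shares of tested genes with an annotated 3′ UTR were 30.9% and 11.8% for the 6-mers and 3.46% and 0.396% for the 8-mers.

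With 5 livers a group, the 95% interval of the reported fit reached no further than 1.5-fold in either direction for 9 of the 10 genes.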
